A study of Homo sapiens with 2 samples.

Results

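The genes described here are 178 well-counted antisense RNAs in PLC8024 cells, together with the protein-coding genes that lie across from them on the other strand. Of the 58735 genes in the deposited count table, 5583 carry the biotype antisense and 5476 of these lie on autosomes. Members were those with at least 100 counts in either library, after H19, GAS5, ZFAS1 and the SNHG host genes were left out by name, which removed 4 well-counted genes. The counts of both libraries therefore chose the members, and a member admitted through the library in which it was high had to pass there. Just inside the minimum stood AL024507.2 with 89 counts in MAEL WT and 100 in MAEL KO, AL139289.1 with 101 and 1, and ASB16-AS1 with 69 and 101. Just outside stood AC112907.3 with 62 and 98, TNFRSF10A-AS1 with 97 and 85, and SREBF2-AS1 with 96 and 90.

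The study compared 1 RNA library of wild-type cells (MAEL WT) with 1 library of cells in which MAEL had been knocked out by a guide RNA and Cas9 (MAEL KO). MAEL, a cancer/testis gene, was studied for its part in stem-like traits of hepatocellular carcinoma (HCC). The labels name the cells 8024, an epithelial HCC line of the liver also known as Alexander cells, and list no drug treatment. Per the study's methods, knockout cells were sorted by a fluorescent reporter and grown as single clones, so the MAEL KO library may stand for 1 clone. Total counts were 19904136 in MAEL WT and 20833332 in MAEL KO. MAEL itself had 1 count and 0 counts, so it could not check the labels. All 8 hepatocyte and hepatoma markers were detected in both libraries, and their summed counts went from 255030 to 526810, with ALB at 59 and 8550 counts. The 4 epithelial markers summed to 22644 and 35468, with EPCAM at 15 and 0. The 3 immune markers summed to 5 counts in each library, the 5 fibroblast markers to 153 and 148, with COL1A1 at 92 and 11 and COL3A1 at 54 and 136, and the 3 endothelial markers to 353 and 407, of which PECAM1 held 348 and 392. With 1 library per condition there is no replicate error, so no p-value is given. Every interval below is a 95% interval. That of a gene or of the difference within a pair covers counting error only. That of a median comes from order statistics and reflects the spread among genes or pairs, all from the same libraries. Neither measures variation between cultures.

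An antisense RNA is transcribed from the strand opposite to another gene. Many start close to the promoter of that gene and run away from it, as divergent transcripts, while others lie inside its introns or run into its end. Some act on the neighbouring gene or its chromatin, some host microRNAs, and for most no function is known.

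The members lay on 22 chromosomes, and 152 of the 178 overlapped a protein-coding gene on the other strand by their annotated bounds. In 55 members the starts of both genes lay in the overlap (head-to-head), in 35 the ends did (tail-to-tail), 38 lay within the coding gene, 24 spanned a coding gene, and 26 had no overlap. In 14 of those 26, a coding gene on the other strand started within 1 kb. Reads were counted without regard to strand as far as the values show. Among 161 antisense genes with at least 95% of their exonic bases inside exons of an opposite gene with at least 1000 counts, 158 were at 0 in both libraries and the highest summed to 13 counts. Among 669 such genes with under 10% of their exonic bases inside opposite exons, 85 were at 0. Reads in exons shared by both strands were thus left with neither gene, and in the introns of a coding gene antisense reads and unspliced reads of that gene cannot be told apart. In 59 members at least 50% of the exonic bases lay in introns of an opposite coding gene, and in 57 members at least 90% lay outside such genes.

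Mature microRNAs of a pair of host RNAs are shown because the hosts differed between the libraries in opposite directions. DLEU2, a host of the miR-15a and miR-16 hairpins in a region often deleted in leukaemia, had 38 counts in MAEL WT and 183 in MAEL KO. AC020916.1 spans the miR-23a, miR-27a and miR-24 hairpins and had 270 and 122 counts. The sequences are from RefSeq on GRCh38.p14, read from the start of the mature RNA, with the seed (bases 2 to 8) in capitals.
hsa-miR-15a-5p: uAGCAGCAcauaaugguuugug
hsa-miR-16-5p: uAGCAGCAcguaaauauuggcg
hsa-miR-23a-3p: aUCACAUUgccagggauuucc
hsa-miR-27a-3p: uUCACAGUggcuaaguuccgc
hsa-miR-24-3p: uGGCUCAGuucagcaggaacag
Of the microRNAs shown, those of DLEU2 lie on chromosome 13 and share the seed AGCAGCA. The others shown lie on chromosome 19 and have seeds of their own. In all, 4 members held 7 microRNA hairpins on their own strand. The other hosts were GABPB1-AS1, with 2685 counts in MAEL WT and 988 in MAEL KO, and ENTPD1-AS1, with 185 and 195. The separate rows of these hairpins held at most 1 count, so these libraries give no level of the mature microRNAs.

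Promoters are shown for TMPO-AS1, the member with the highest log2 fold change, and for TMPO, the gene it overlaps at its start. TMPO encodes a protein of the nuclear lamina. Each sequence holds the 250 bases before the RefSeq start on GRCh38.p14, on the strand of its own gene, with capitals where a searched motif or its reverse complement was found.
TMPO: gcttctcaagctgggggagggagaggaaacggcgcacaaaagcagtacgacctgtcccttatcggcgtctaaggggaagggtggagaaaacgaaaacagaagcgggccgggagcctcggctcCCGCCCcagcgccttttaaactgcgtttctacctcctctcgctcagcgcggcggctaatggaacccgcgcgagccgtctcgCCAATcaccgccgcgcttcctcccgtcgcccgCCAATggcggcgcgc
TMPO-AS1: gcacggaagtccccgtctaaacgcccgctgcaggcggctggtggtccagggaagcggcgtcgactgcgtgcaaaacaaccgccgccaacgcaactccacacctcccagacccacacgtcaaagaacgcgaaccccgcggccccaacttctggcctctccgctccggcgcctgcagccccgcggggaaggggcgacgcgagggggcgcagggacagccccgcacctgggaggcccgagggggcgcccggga
The TMPO sequence is chr12:98515323-98515572 on the plus strand and that of TMPO-AS1 chr12:98516227-98516476 on the minus strand. The TMPO sequence held CCAAT at 15 and 47 bases before the start and GGGCGG at 128 bases before it. None of the 10 motifs was found in these 250 bases of TMPO-AS1.

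The antisense RNAs were mostly lower in the MAEL KO library. The members' median log2 fold change (MAEL KO over MAEL WT, positive where MAEL KO was higher) was -0.35, with an interval of -0.56 to -0.22 from its order statistics and quartiles of -0.97 and 0.29. Of the 178 members, 121 were below 0 and 57 above. The same median over all 12023 genes with at least 100 counts in either library was 0.07, and over 11144 protein-coding genes 0.08. The 192 long intergenic RNAs under the same minimum stood close to the antisense RNAs, with a median of -0.38, 128 below 0 and 64 above, and 25.5% below -1. When libraries were scaled by total counts instead of TMM, the median of all genes shifted by -0.28 and that of the members to -0.62. Members minus all genes was -0.41 in either scaling.

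**Figure D1:**
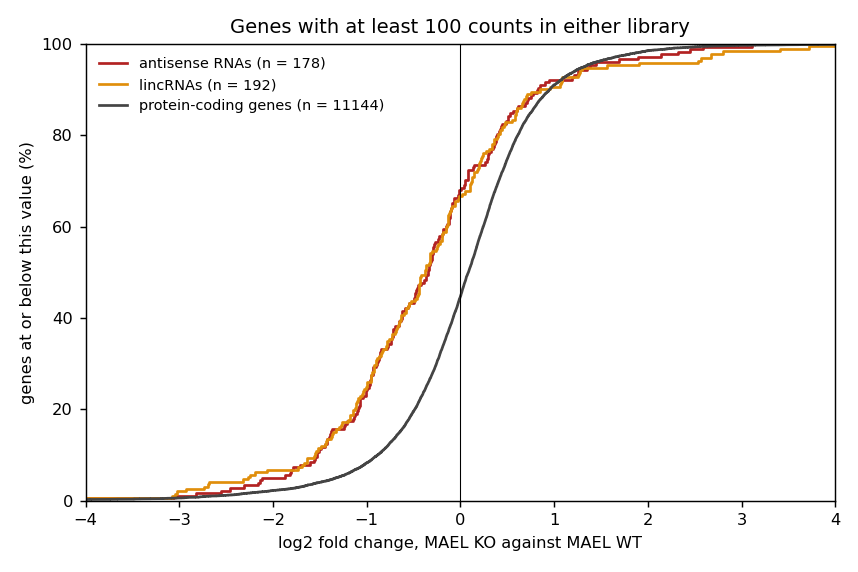
Cumulative share of genes (y axis, %) at or below each log2 fold change, MAEL KO over MAEL WT (x axis), for 178 antisense RNAs, 192 long intergenic RNAs and 11144 protein-coding genes with at least 100 counts in either library. The curves of both noncoding classes run together to the left of the protein-coding curve, with medians of -0.35, -0.38 and 0.08.

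The study called genes by a log2 fold change past 2 together with a limit on the adjusted p-value, and only the fold change was used here. Past 2, 5 members (2.81%) were higher in MAEL KO, where 1.54% of all well-counted genes were, and 9 (5.06%) were lower, where 2.35% were. With total counts these were 4 and 13 members, beside 0.965% and 3.15% of all genes. The lower count rested in part on members with few counts. With a mean normalized count of at least 100 over both libraries, 3 of 139 members (2.16%) were below -2, beside 1.69% of all genes, and 23 (16.5%) were below -1, beside 7.63%. At a minimum of 200 counts, 3 of 75 (4%) were below -2, beside 1.71%. Past 1, 14 members (7.87%) were higher, beside 9.23% of all genes, and 43 (24.2%) were lower, beside 9.16%. The excess over all genes at 1 was therefore on the lower side. The counting interval lay wholly below 0 in 92 members, where 36.1% of all genes had such an interval, wholly above 0 in 41, where 45.1% had, and spanned 0 in 45. The members had fewer counts than most coding genes, so both were also compared in 1 band. In that of 100 to 500 counts in the higher library, 160 members had a median of -0.34 and 23.1% were below -1, whereas 3136 protein-coding genes had a median of -0.10 and 16.1% below -1.

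Summed over the members, counts went from 55970 in MAEL WT to 35296 in MAEL KO, which is 0.281% and 0.169% of all counts. DSCAM-AS1 alone held 18.0% and 11.4% of these sums. Without DSCAM-AS1 the median was unchanged at -0.35. The nuclear-retained RNAs MALAT1 and NEAT1 moved in the same direction, MALAT1 from 5407 to 1502 counts and NEAT1 from 16194 to 1699. Whether nuclear RNA was recovered unequally in the libraries, and its part in the lower antisense levels, was not tested.

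**Figure D2:**
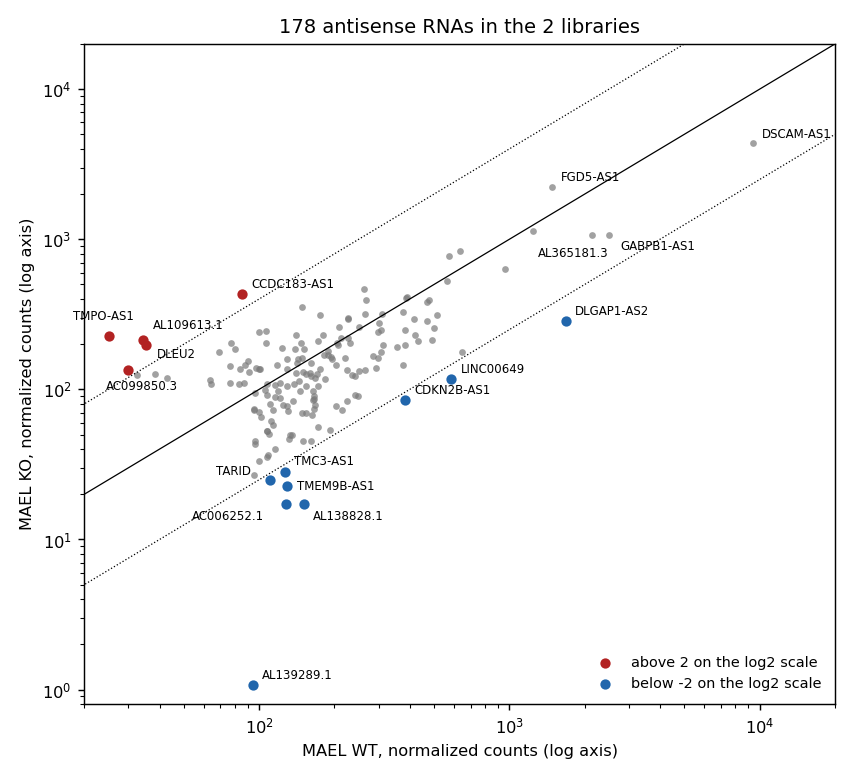
TMM-normalized counts of each of the 178 antisense RNAs in MAEL WT (x axis) and MAEL KO (y axis), both on log axes. Each point is 1 RNA, the solid line marks equal counts and the dotted lines values of 2 and -2 on the log2 scale. The 5 RNAs in red and the 9 in blue lie beyond them, and AL139289.1 stands apart with 1 count in MAEL KO.

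By position, the median was -0.45 for head-to-head members, -0.37 for tail-to-tail members, -0.34 for those within a gene and -0.59 for those spanning a gene. The 26 members without overlap stood nearer to 0, at -0.10 with an interval of -0.63 to 0.35, 14 below 0 and 12 above. The intervals of these classes overlapped. In the 59 members lying mainly in opposite introns the median was -0.35, and in the 57 members lying at least 90% outside opposite genes it was -0.37. The part of unspliced reads of the coding genes in these values was not tested. Among head-to-head members, 18 of 55 (32.7%) were below -1 and 3 were above 1, beside the 9.16% and 9.23% of all genes. The share below -1 was 29.2% in members spanning a gene, 24.2% in all members and 25.5% in the long intergenic RNAs. A large share below -1 was thus not particular to the head-to-head layout.

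The most abundant member was DSCAM-AS1 (ENSG00000235123, chr21:40383083-40385358 on the plus strand), a noncoding RNA known from oestrogen receptor positive breast cancer. It had 10063 counts in MAEL WT and 4038 in MAEL KO, or 260 and 120 FPKM. It was 2.15-fold lower in MAEL KO, a log2 fold change of -1.11 with an interval of -1.16 to -1.05. DSCAM, the neuronal adhesion gene whose intron holds it, had 599 and 194 counts, or -1.41 on the log2 scale. GABPB1-AS1, which starts 449 bases from the start of GABPB1 and overlaps it there, had 2685 and 988 counts and a log2 fold change of -1.23. GABPB1, a subunit of an ETS transcription factor complex, had 507 and 433 counts, and its interval of -0.21 to 0.17 included 0. AL365181.3 went from 2288 to 989 counts and AL590666.2 from 463 to 194, and both lie across from BCAN, a proteoglycan gene of brain matrix with 316 and 131 counts. The interval of the log2 fold change was -1.11 to -0.89 for AL365181.3, -1.29 to -0.80 for AL590666.2 and -1.37 to -0.76 for BCAN. FGD5-AS1 went the other way, with 1582 and 2079 counts, or 0.60 on the log2 scale. CTBP1-DT had 684 and 773 counts, HCG18 1331 and 1045, and AC074117.1 1029 and 590.

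Highest in MAEL KO relative to MAEL WT was TMPO-AS1 (ENSG00000257167, chr12:98512973-98516422 on the minus strand), with 27 counts in MAEL WT and 209 in MAEL KO. It was 8.96-fold higher in MAEL KO, a log2 fold change of 3.11 with an interval of 2.58 to 3.80. TMPO also was higher, with 1388 and 3726 counts and a log2 fold change of 1.63. The pair overlapped by 911 bases at their starts, so that each promoter sequence printed above lies within the other gene's bounds. Per length, TMPO-AS1 stood at 4.98% of the TMPO level in MAEL WT and at 14.4% in MAEL KO. DLEU2 (ENSG00000231607, chr13:49982552-50125720 on the minus strand) had a log2 fold change of 2.45, with an interval of 1.97 to 3.02. TRIM13, a ubiquitin ligase gene that DLEU2 spans, had 182 and 349 counts, or 1.15 on the log2 scale. Of the exonic bases of DLEU2, 93.2% lay outside opposite coding genes.

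Most of the other members far higher in MAEL KO lay mainly within coding genes. CCDC183-AS1 had 92 and 401 counts, a log2 fold change of 2.32, and CCDC183 had 170 and 451, a log2 fold change of 1.61. AC099850.3 lies inside PRR11, a gene of cell cycle progression, and had 32 and 125 counts beside 254 and 847 for PRR11. The difference between their log2 fold changes was 0.20, with an interval of -0.40 to 0.79, so they did not differ beyond counting error. Since 69.8% of the exonic bases of AC099850.3 lie in PRR11 introns, unspliced PRR11 reads cannot be told apart from its own. AP001062.1 had 41 and 117 counts beside 260 and 619 for CFAP410, with a difference of 0.24 that also lay within counting error. AL109613.1 did not move with its gene. It lies in introns of BCAR3, an adaptor gene of cell adhesion signalling, and went from 37 to 197 counts while BCAR3 went from 729 to 304. AC005329.1 went from 35 to 115 counts beside 554 and 388 for NDUFS7, a complex I subunit, and ZNF710-AS1 from 74 to 165 beside 1711 and 835 for ZNF710. AP005329.2 had 46 and 110 counts, and MYOM1, a sarcomere gene, 409 and 347.

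**Figure D3:**
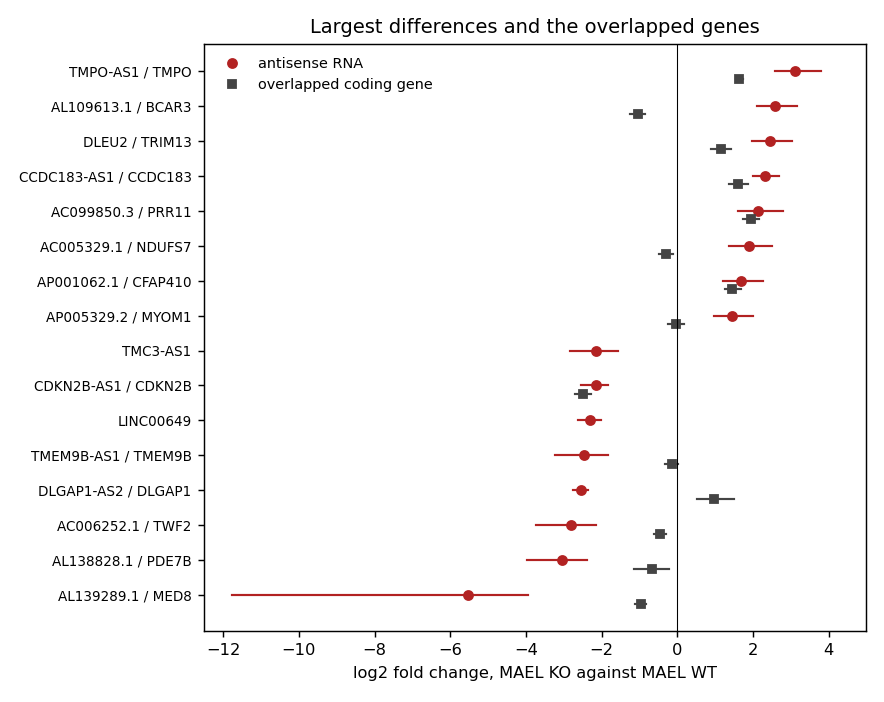
Log2 fold change, MAEL KO over MAEL WT (x axis), for the 8 antisense RNAs highest on this scale and the 8 lowest (red circles), with the overlapped coding gene where it had at least 100 counts (grey squares). Bars are 95% counting intervals, and the point of AL139289.1 rests on 1 count in MAEL KO and on the 1 added to each normalized count. TMPO-AS1 is highest at 3.11, above TMPO at 1.63.

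Among the members with the lowest log2 fold change, AL139289.1 had 101 counts in MAEL WT and 1 in MAEL KO. Against the floor of 3 counts per library it was at least 29.1-fold lower. MED8, the Mediator subunit gene that contains it, had 1314 and 580 counts, or -0.97 on the log2 scale. AL138828.1 had 162 and 16 counts, a log2 fold change of -3.06, and PDE7B, a cyclic AMP phosphodiesterase gene, 114 and 62. AC006252.1 had 137 and 16 counts and shares 3 bases at its start with TWF2, an actin-binding gene with 941 and 592 counts. TMEM9B-AS1 had 138 and 21 counts beside 636 and 495 for TMEM9B, whose interval of -0.32 to 0.02 included 0. These members were far lower in MAEL KO than the genes across from them. They were chosen as the lowest members, which favours such a difference, so it does not describe the pairs in general.

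DLGAP1-AS2 (ENSG00000262001, chr18:3603000-3608336 on the plus strand) had the most counts among those below -2. It had 1809 counts in MAEL WT and 266 in MAEL KO, a log2 fold change of -2.55 with an interval of -2.75 to -2.37. DLGAP1, a synaptic scaffold gene, had 58 and 100 counts, a log2 fold change of 0.98, so the pair went in opposite directions. DLGAP1-AS1, a neighbour on the same strand, had 549 and 292 counts, a log2 fold change of -0.70. All exonic bases of both lie in DLGAP1 introns, and both stood far above DLGAP1 per length. LINC00649 had 629 and 109 counts, a log2 fold change of -2.31. It starts 446 bases from the start of ATP5PO, a subunit of the mitochondrial ATP synthase, which had 440 and 623 counts. TMC3-AS1 had 136 and 26 counts. TARID, which is known to guide demethylation at the TCF21 promoter, had 119 and 23 counts, and EYA4, a transcription coactivator gene across from its end, 119 and 4.

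CDKN2B-AS1, also called ANRIL, crosses a tumour suppressor locus (ENSG00000240498, chr9:21994778-22121097 on the plus strand). It had 412 counts in MAEL WT and 79 in MAEL KO, a log2 fold change of -2.16 with an interval of -2.54 to -1.82. CDKN2B, an inhibitor of cyclin-dependent kinases that it spans, had 1402 and 215 counts, a log2 fold change of -2.49. The difference within the pair was 0.33, with an interval of -0.07 to 0.73. CDKN2A, whose start lies 523 bases from that of CDKN2B-AS1, had 1946 and 2014 counts. Its log2 fold change was 0.26, with an interval of 0.17 to 0.35. CDKN2B-AS1 was thus lower together with the gene it spans, while CDKN2A was slightly higher. With total counts CDKN2A stood at -0.016, in a scaling that shifted the median of all genes by -0.28. The sequences before both starts are given for this pair, 250 bases each from RefSeq on GRCh38.p14 with motif matches in capitals.
CDKN2B-AS1: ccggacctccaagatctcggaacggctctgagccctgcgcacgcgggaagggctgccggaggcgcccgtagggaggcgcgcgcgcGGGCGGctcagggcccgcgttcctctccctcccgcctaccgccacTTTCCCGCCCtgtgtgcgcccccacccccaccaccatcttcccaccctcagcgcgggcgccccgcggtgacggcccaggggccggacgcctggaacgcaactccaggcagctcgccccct
CDKN2B: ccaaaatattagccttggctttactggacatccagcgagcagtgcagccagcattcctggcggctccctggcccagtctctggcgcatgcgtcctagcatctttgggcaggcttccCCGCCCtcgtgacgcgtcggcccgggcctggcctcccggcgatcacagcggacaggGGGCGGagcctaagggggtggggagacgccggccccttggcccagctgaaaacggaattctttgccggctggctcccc
The CDKN2B-AS1 sequence is chr9:21994541-21994790 on the plus strand and that of CDKN2B chr9:22009306-22009555 on the minus strand. GGGCGG or its reverse complement was found in both, and TTTCCCGC only in that of CDKN2B-AS1, of these 2 sequences.

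The overlapped gene had at least 100 counts in 113 pairs, which cover 111 coding genes, since BCAN and DLGAP1 each face 2 members. The median log2 fold change was -0.37 for the antisense RNAs and -0.03 for the coding genes. The median difference within a pair, antisense minus gene, was -0.32, with an interval of -0.53 to 0.00072, and 67 pairs were below 0 and 46 above. In the 48 pairs whose overlap covered at least 50% of the antisense gene it was 0.0096, and with a minimum of 10 counts for the coding gene it was -0.11 over 137 pairs. The interval of the difference lay wholly below 0 in 52 pairs and wholly above 0 in 26. Both partners were lower in MAEL KO in 47 pairs and both higher in 23. Pearson's r between the partners was 0.40 and Spearman's rho 0.33 over the 113 pairs, as a description, since all pairs share the same libraries and scaling.

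Directions were opposite beyond counting error in 27 pairs. In 19 of them the antisense RNA was lower and the gene higher, and in 8 the reverse. Of the 178 members, 92 had an interval wholly below 0 and 41 wholly above. Of all genes with at least 100 counts, 36.1% lay wholly below and 45.1% wholly above. Opposite directions are therefore also common between unrelated genes. The share in unrelated pairs was not computed, so the 27 are not read as an excess. Among the 19 were NNT-AS1, with 412 and 184 counts, and NNT, a mitochondrial transhydrogenase gene with 1206 and 1724. THAP9-AS1 had 513 and 366 counts, and THAP9 69 and 123. AC022167.2 had 116 and 34 counts, and CARHSP1, an RNA-binding protein gene, 510 and 776. A few further pairs were chosen after their values were seen. DICER1-AS1 had 206 and 50 counts, and DICER1, the ribonuclease that processes microRNA precursors, 2609 and 3263, with log2 fold changes of -1.81 and 0.53. SLC16A1-AS1 had 403 and 134 counts, and SLC16A1, a lactate transporter gene, 1993 and 2708, with log2 fold changes of -1.37 and 0.65. These NNT, DICER1 and SLC16A1 partners lie head-to-head with their coding gene, and over 90% of their exonic bases lie outside it.

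**Figure D4:**
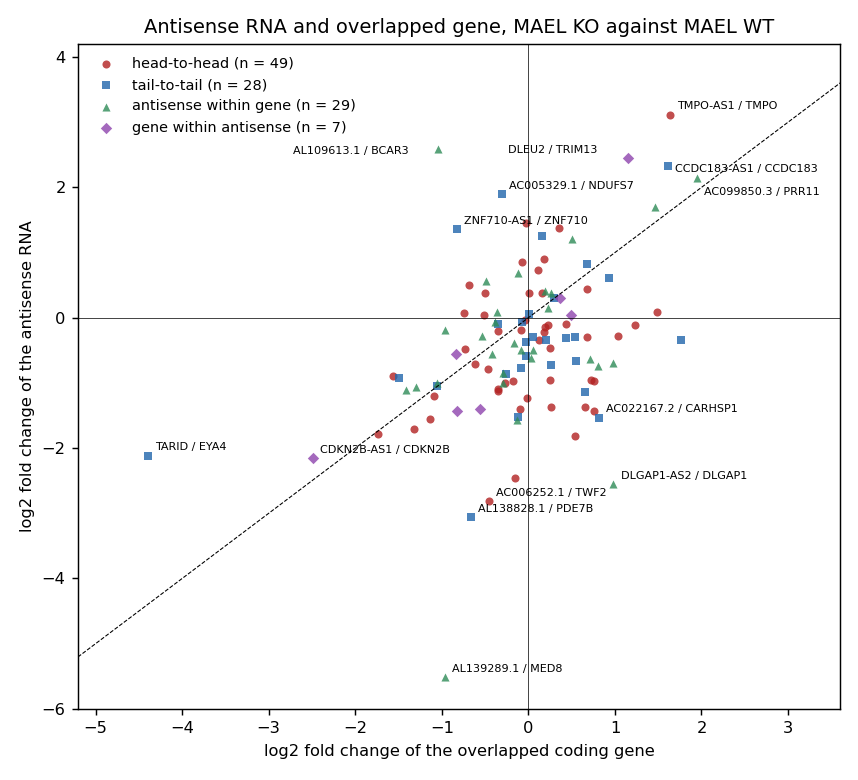
Log2 fold change, MAEL KO over MAEL WT, for the overlapped coding gene (x axis) and the antisense RNA (y axis) in 113 pairs, marked by the layout of the overlap. The dashed line marks equal values. More pairs lie under it (67) than over it (46). The point of AL139289.1 rests on 1 count in MAEL KO and on the 1 added to each normalized count.

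By layout of the overlap, the median difference within pairs was -0.39 in 49 head-to-head pairs and -0.34 in 28 tail-to-tail pairs, whereas it was 0.06 in 29 pairs with the antisense RNA inside the gene. Their intervals overlapped. In the 26 pairs with at least 90% of the antisense exonic bases outside opposite genes, the antisense RNA had a median of -0.96 and the gene 0.07, and 22 of 26 differences were below 0. This class was chosen after seeing the data, and all 57 members in it had a median of -0.37. In the 41 pairs lying mainly in opposite introns the median difference was -0.13. When partners were set by start sites instead, 83 members started within 1 kb of a coding gene, 80 of them beside a gene with at least 100 counts. There the median was -0.48 for the antisense RNA and 0.12 for the coding gene, and 54 of 80 differences were below 0. Pearson's r over these 80 was 0.24 and Spearman's rho 0.12, lower than over the overlapping pairs.

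Per length, by the deposited FPKM, the antisense RNA stood at a median of 36.8% of the level of its gene in MAEL WT, with quartiles of 15.3% and 102%. In MAEL KO the median was 30.3%, with quartiles of 13.4% and 83.0%. The antisense RNA was the higher partner in 29 pairs in MAEL WT and in 25 in MAEL KO. DSCAM-AS1 stood at 8145% of DSCAM in MAEL WT and at 10092% in MAEL KO, with lower counts of both in MAEL KO. GABPB1-AS1 went from 175% to 75.4% of GABPB1. These shares depend on the annotated length of each gene, which takes in all of its exons. Reads in exons shared by both strands were left with neither gene, so partners with much exon overlap may be understated.

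Of 56 antisense and related noncoding RNAs on a list of well-known names, 14 were members. Of these 14, 12 were below 0, beside 68.0% of all members and 45.8% of all genes. Their median was -0.41, beside -0.35 for all members. The interval lay wholly below 0 in 9, wholly above 0 in 2 and spanned 0 in 3, beside 36.1% of all genes wholly below and 45.1% wholly above. ZEB1-AS1 had 107 and 66 counts, beside 325 and 169 for ZEB1, a repressor of epithelial genes. CASC2 had 117 and 47 counts, and MCM3AP-AS1 187 and 127. The 3 with intervals that included 0 were HOXA-AS2, with 165 and 117 counts, SBF2-AS1, with 202 and 166, and KCNQ1OT1, the imprinted RNA of the KCNQ1 locus, with 130 and 103. HOXA3, across from HOXA-AS2, had 689 and 409 counts, and KCNQ1 was at 0 in both libraries.

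The overlapped genes were also grouped by prefixes of their symbols, so a group does not hold every gene of its kind. The 8 pairs with genes named ZNF, ZBTB, KLF, HOX, SOX or GATA had medians of -0.59 for the antisense RNA and -0.58 for the gene. Both partners were below 0 in 6 of the 8, beside 47 of all 113 pairs. Among these 6, the counting intervals of GATA2-AS1, GATA2 and HOXA-AS2 included 0. The 6 pairs with genes named for ubiquitin enzymes, proteasome subunits, RAB and VPS proteins or as TMEM had medians of -0.73 and -0.12. The 3 pairs found by prefixes of cell cycle genes went different ways, with TMPO-AS1 higher and CDKN2B-AS1 and MCM3AP-AS1 lower in MAEL KO. The 3 pairs found by prefixes of hepatocyte and metabolic genes, all of the SLC transporters, had medians of -0.73 for the antisense RNA and 0.27 for the gene. In 2 of them the antisense RNA was lower and the gene higher, and in 1 both were higher. The 3 pairs found by prefixes of RNA and translation genes (EIF2B4, NOP14 and EIF4B) had medians of 0.61 and 0.67. Both partners were higher in 2 of them. In the pair of EIF2B4 the antisense RNA was lower, while the interval of EIF2B4, -0.15 to 0.09, included 0.

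RefSeq promoters, from 250 bases before to 50 after the start, were matched by symbol for 74 of the 178 members and for 91 paired coding genes. The GC-box letters GGGCGG, on either strand, were found in 59.5% of the members' promoters, in 71.4% of those of the paired genes and in 44.6% of all 27305 promoters. CCAAT was found in 37.8%, 33% and 35.7%, and TATAAA in 6.76%, 7.69% and 12%. The median GC content was 63.8% for the members, 65% for the paired genes and 58.3% for all promoters. For 73 long intergenic RNAs with at least 100 counts, GGGCGG was found in 56.2%, close to the members. CCAAT was found in 50.7% of these 73 and TATAAA in 8.22%, and their median GC content was 59.3%. Only members with an assigned symbol could be matched, so these shares leave out the members named after genomic clones.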

How the data were processed

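RNA of 1 MAEL WT and 1 MAEL KO library was measured by RNA sequencing. The authors deposited raw read counts for each gene and FPKM values, and the submitters' processing notes list HISAT2 2.0.5, featureCounts 1.5.0-p3 and hg19. All 58735 genes match GENCODE 29 on GRCh38 by bounds, strand and exon length, so coordinates are given on GRCh38. The strand setting of the counting is not given in the sources used here.

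In R 4.3.3, libraries were scaled by TMM factors from edgeR 4.0.16 (1.10 and 0.909), and DESeq2 1.42.0 gave the size factors of an alternative. Log2 fold changes compare MAEL KO with MAEL WT after 1 was added to each normalized count. Counting intervals are exact (Clopper-Pearson, on the part of a gene's counts found in MAEL KO), while those of pair differences are normal approximations. The floor was 3 counts. The sources name no molecular identifiers, so reads may not be independent, and both the counting intervals and the floor reflect counting error alone. Intervals of medians come from order statistics over genes or pairs. Python 3.11.15, NumPy 2.4.6, SciPy 1.17.1, pandas 2.3.3 and matplotlib 3.10.9 were used, and the steps were tested on simulated data.

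A pair is a member and the coding gene with the longest overlap on the other strand. The members named are the 8 with the highest and the 8 with the lowest log2 fold change, the 8 with most counts, the 5 pairs with the most positive and the 5 with the most negative difference, those at the minimum and those on the list of known names. Of those on that list, 1 is not reported here by name. Members, lists and rules were chosen with earlier results of these data known. The motifs searched on both strands were the CCAAT box, the TATA box as TATAAA, the GC box as GGGCGG, the ETS motif as CCGGAAG, the cyclic AMP response element as TGACGTCA, the E2F motif as TTTCCCGC and as TTTGGCGC, the E box as CACGTG, the ATF4 motif as TGATGCAA, and the NRF1 motif. Alternatives in scaling, added count, count minimum, threshold and pairing were also computed. GC box matches on the reverse strand can overlap the first E2F motif.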

Additional observations from a re-analysis of the deposited data

How the results depend on the processing

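The direction of the members' median held, and the counts past 2 stayed within 1.5 times, under DESeq2 size factors, the ratio of deposited FPKM and other added counts. With total counts the median was -0.62, and 4 members were above 2 and 13 below -2, in place of 5 and 9. At a minimum of 10 counts, 29 of 1140 members (2.54%) were above 2 and 71 (6.23%) below -2, close to the 2.16% and 5.64% of all genes, and the median of all genes was -0.038. At 50 counts 18 (5.14%) were below -2, beside 3.08%, and at 200 counts 2 were above 2 and 3 below -2. With a mean normalized count of at least 100, 3 were below -2. At a threshold of 1, 14 were above and 43 below. Alternatives chosen after seeing the data were no minimum, with a median of -0.21 and 145 above 2 and 182 below -2, and members at least 90% outside opposite genes, with 1 and 3. The median pair difference was 0.0096 over 48 pairs in which the overlap covered at least 50% of the antisense gene and -0.11 over 137 pairs with a coding gene of at least 10 counts, and Pearson's r was 0.22 over 59 pairs with little exon overlap. The cause of these shifts was not tested. Of 185 values for 37 named members under other scalings and added counts, 11 moved beyond their counting interval, all with total counts, and none changed sign. No paired analysis was possible because each condition has 1 library, and leaving out a library was not possible for the same reason. Depth limits the members near the minimum most.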
